A study of Mus musculus with 156 samples.

Results

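The NRF2 antioxidant genes described here were 9 genes chosen by their symbols, Gclc, Gclm, Gsto1, Txn1, Txnrd1, Srxn1, Nqo1, G6pdx and Hmox1, of 40914 genes in the deposited tables. All 9 were found, and all 9 passed the filter on low counts, with a lowest count of 558 for Srxn1 and a highest of 19526 for Txnrd1 in any library. On mm10 (GENCODE M21) Gclc lies at chr9:77754535-77794485 and Gclm at chr3:122245557-122270732, both on the plus strand, as do Gsto1 at chr19:47854970-47864790, Txnrd1 at chr10:82833951-82897712, Srxn1 at chr2:152105516-152111376 and Hmox1 at chr8:75093621-75100589. On the minus strand lie Txn1 at chr4:57943373-57956411, Nqo1 at chr8:107388225-107403206 and G6pdx at chrX:74409483-74429194.

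NRF2, encoded by Nfe2l2, is a transcription factor that KEAP1 holds in the cytoplasm and delivers to a CUL3 ubiquitin ligase for degradation. When oxidants or electrophiles modify KEAP1, NRF2 accumulates, pairs with small MAF proteins and binds antioxidant response elements, where BACH1 competes with it, above all at Hmox1. Gclc and Gclm encode the catalytic and modifier subunits of the enzyme that limits glutathione synthesis, and Gsto1 a glutathione transferase that reduces dehydroascorbate. Txn1 is cytosolic thioredoxin, Txnrd1 the selenoprotein reductase that recharges it with NADPH, and Srxn1 the enzyme that restores overoxidized peroxiredoxins. Nqo1 reduces quinones, G6pdx makes NADPH in the first step of the pentose phosphate pathway, and Hmox1 breaks down heme.

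RNA was sequenced in mouse embryonic stem cells of 4 lines after addition of doxycycline. Firre is a long noncoding RNA. The lines were a Firre KO line with a Firre transgene that doxycycline induces (KO transgene line), its Firre KO control, a line with the inducible transgene and no stated deletion (WT transgene line), and its WT control. The long course had 5 times, 0, 720, 1440, 2880 and 5760 min, with 3 replicates per group, and the short course had 12 times from 0 to 330 min in steps of 30 min, with 2 replicates per group. All cells, controls included, grew with serum, LIF, PD0325901 (a MEK inhibitor), CHIR99021 (a GSK3 inhibitor) and the reducing agent 2-mercaptoethanol, and doxycycline followed a change of medium by an hour. Every group but those of 0 min was therefore treated, so in the controls doxycycline, the age of the medium and culture time cannot be told apart. The promoter of the transgene and the number of clones behind each line are not given in the sources used here. What a replicate is was not given either, so p-values measure the spread between these samples, which may be technical. In bulk RNA, fewer cells expressing a gene and less RNA per cell cannot be told apart.

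Total counts per library ran between 18961799 and 47948630 in the long course and between 19013652 and 37195019 in the short course. Summed TPM of 7 pluripotency markers lay between 6975 and 10492, against at most 4.98 for 6 fibroblast markers, 4.37 for 5 primitive endoderm markers and 7.98 for 4 trophoblast markers. Firre had 0.515, 0.235 and 0.420 TPM in KO control and 24.7, 24.3 and 23.6 TPM in WT control at 0 min of the long course, and 50.2, 47.3 and 50.8 TPM in the KO transgene line after 720 min. These values match the labels. Before doxycycline Firre was higher in the transgene lines of the long course than in their controls, by 1.35 ± 0.28 with KO and, on counts, by 0.31 ± 0.043 with WT cells (edgeR adjusted p = 6.81e-04 and 6.68e-08). The WT transgene line then had 45.8, 45.8 and 46.8 TPM. Those differences in the short course were, on counts, 0.24 ± 0.31 and 0.018 ± 0.10 (edgeR adjusted p = 0.817 and 0.962). In TPM, however, the WT transgene line of the short course had at least 41.4 in any library, 0 min included, and WT control at most 32.0. Tests were run with edgeR over 17565 genes in the long and 18009 genes in the short course. A gene is said to have risen or fallen where its adjusted p was under 0.05, and fold changes are log2 values on counts with their standard error.

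The proximal promoters were searched for 1 spelling of the core of an antioxidant response element next to the start site. Other spellings were not searched, and a match of letters does not show that NRF2 binds there. RefSeq sequence (GRCm38.p6) of the 250 bases before and 50 bases after the start was at hand for 7 members in 9 windows, 3 of them for Txnrd1, and was searched on both strands for TGACNNNGC, which reads GCNNNGTCA on the other strand. The entries for Gclc and Hmox1 are missing. A match was found in 4 of the 9 windows, 1 each for Srxn1, Gclm, Txnrd1 and G6pdx, and 12.4% of all 32851 windows of this length held one. No match was found in the windows of Txn1, Nqo1 and Gsto1, which says only that these letters are not in them. The windows of Srxn1 (chr2:152105274-152105573, plus strand), Gclm (chr3:122245307-122245606, plus strand), Txnrd1 (the second window, chr10:82858956-82859255, plus strand) and G6pdx (chrX:74428831-74429130, minus strand) are shown for the position of the match. They are written 5′ to 3′ on the strand of the gene, with the match in capitals.
Srxn1: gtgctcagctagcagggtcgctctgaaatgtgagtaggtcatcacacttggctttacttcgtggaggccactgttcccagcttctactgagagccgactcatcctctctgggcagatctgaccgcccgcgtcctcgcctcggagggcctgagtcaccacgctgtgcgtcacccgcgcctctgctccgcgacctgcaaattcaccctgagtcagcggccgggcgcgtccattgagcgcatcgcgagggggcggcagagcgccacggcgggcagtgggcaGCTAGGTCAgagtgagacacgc
Gclm: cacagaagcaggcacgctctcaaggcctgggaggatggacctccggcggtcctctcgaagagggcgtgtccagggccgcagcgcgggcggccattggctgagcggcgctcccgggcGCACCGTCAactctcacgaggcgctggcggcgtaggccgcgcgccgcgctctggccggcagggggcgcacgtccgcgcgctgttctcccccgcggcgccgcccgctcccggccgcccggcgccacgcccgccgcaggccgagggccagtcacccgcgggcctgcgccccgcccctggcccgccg
Txnrd1: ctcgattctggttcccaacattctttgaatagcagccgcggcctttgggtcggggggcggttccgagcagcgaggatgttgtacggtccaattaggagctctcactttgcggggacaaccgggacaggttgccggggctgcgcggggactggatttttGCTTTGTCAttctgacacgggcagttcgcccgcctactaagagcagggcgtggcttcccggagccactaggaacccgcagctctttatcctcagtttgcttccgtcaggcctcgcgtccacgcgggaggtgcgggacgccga
G6pdx: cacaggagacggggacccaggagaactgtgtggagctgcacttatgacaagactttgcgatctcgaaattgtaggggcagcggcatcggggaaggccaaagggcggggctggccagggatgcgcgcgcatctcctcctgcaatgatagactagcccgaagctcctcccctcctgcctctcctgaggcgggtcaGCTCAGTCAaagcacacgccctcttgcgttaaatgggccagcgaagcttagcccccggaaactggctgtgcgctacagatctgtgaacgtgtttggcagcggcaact
The first base of the match lay at +28 in Srxn1, at -134 in Gclm, at -92 in Txnrd1 and at -57 in G6pdx, counted from the start site as 0. In all 4 the consensus as spelled, with TGAC first, ran on the strand opposite to the gene. The match read TGACCTAGC in Srxn1, TGACGGTGC in Gclm, TGACAAAGC in Txnrd1 and TGACTGAGC in G6pdx.

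Levels, compared between genes as TPM, which is scaled for length, spanned a wide range in untreated cells. In WT control at 0 min of the long course Txn1 stood highest at 551 ± 6.53 TPM (SD, n = 3), followed by Gsto1 at 208 ± 1.63 and Txnrd1 at 143 ± 5.32 TPM. Gclm had 84.1 ± 4.46 TPM, Nqo1 66.1 ± 1.07, Hmox1 53.4 ± 1.57 and G6pdx 39.9 ± 1.31 TPM. Gclc, the catalytic partner of Gclm, had 28.4 ± 0.36 TPM and Srxn1 was lowest at 13.8 ± 0.49 TPM. The 3 libraries of each gene did not overlap those of its neighbours in this order. In KO control the order was the same, but Gsto1 at 136 ± 1.80 TPM stood close above Txnrd1 at 126 ± 1.55 TPM.
The courses differed in these levels before any treatment: over all lines at 0 min, Gsto1 ran between 278 and 354 TPM in the 8 libraries of the short course and between 134 and 210 TPM in the 12 of the long course, and Txnrd1 between 200 and 251 TPM and between 125 and 146 TPM. The courses were not tested against each other.

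The change over time in the controls held the largest fold changes of these genes among the comparisons run. In KO control 7 of the 9 members rose and 2 fell, where 59.6% of all genes tested changed, and in WT control 7 rose and 1 fell, where 54.8% changed. The signs of Txn1, G6pdx and, in WT control, Hmox1 turned with the treatment of transcript length, as described further on. The median log2 fold change over the members, each at the time of its largest change, was 0.34 in KO control and 0.51 in WT control, against -0.058 and -0.072 over all genes. Of all genes, 29.8% rose and 29.8% fell in KO control, and 28.7% rose and 26.1% fell in WT control. The mitochondrial share of counts moved as well: it was 4.80 to 5.44% at 2880 min against 3.78 to 3.94% at 0 min in KO control, and 4.96 to 5.33% against 3.42 to 3.63% in WT control. Its part in the changes was not tested.
Gsto1 began in KO control with 137, 137 and 134 TPM (0 min) and 152, 157 and 143 TPM (720 min), and then had 290, 289 and 268 TPM (1440 min), 270, 261 and 251 TPM (2880 min) and 188, 195 and 189 TPM (5760 min). WT control began with 210, 209 and 207 TPM (0 min) and 230, 229 and 201 TPM (720 min), and then had 300, 304 and 290 TPM (1440 min), 301, 284 and 277 TPM (2880 min) and 237, 230 and 213 TPM (5760 min). In both lines the libraries of 1440 and 2880 min were above all earlier ones. Those of 5760 min lay between in KO control and overlapped those of 720 min in WT control. It reached 1.10 ± 0.034 at 1440 min in KO control (edgeR adjusted p = 9.93e-47, 12 of 12 libraries) and 0.69 ± 0.034 at 2880 min in WT control (edgeR adjusted p = 2.89e-32, 12 of 12).
Srxn1 had 26.3, 27.9 and 28.5 TPM at 2880 min, against 13.6, 12.9 and 14.7 TPM at 0 min, in KO control, and 23.7, 21.4 and 25.3 TPM against 13.4, 14.4 and 13.7 TPM in WT control. The groups did not overlap in either line. The rise at 2880 min was 1.02 ± 0.041 in KO control (edgeR adjusted p = 3.14e-38) and 0.78 ± 0.042 in WT control (edgeR adjusted p = 1.81e-30), with 12 of 12 libraries of the later times higher in each line.
Nqo1 spanned 95.5 to 111 TPM at 1440 to 5760 min, against 65.8 to 73.8 TPM at 0 and 720 min, in KO control, and 80.9 to 105 TPM against 65.1 to 71.3 TPM in WT control. The windows did not overlap, and unlike Gsto1 its level held to the last time. Its largest rise was 0.78 ± 0.039 at 2880 min in KO control (edgeR adjusted p = 1.86e-32) and 0.69 ± 0.040 at 5760 min in WT control (edgeR adjusted p = 3.30e-29).
Txnrd1, the reductase, spanned 161 to 182 TPM at 1440 to 5760 min, against 125 to 152 TPM at 0 and 720 min, in KO control, and 173 to 206 TPM against 137 to 155 TPM in WT control. It rose by 0.51 in both lines at 1440 min (SE 0.026 in KO control and 0.027 in WT control; edgeR adjusted p = 7.57e-33 and 4.04e-33). Its 0 to 720 min libraries and later ones did not overlap in either line.
The glutathione subunits rose less. Gclm rose by 0.34 ± 0.033 in KO control at 1440 min (edgeR adjusted p = 7.68e-17) and by 0.58 ± 0.033 in WT control at 5760 min (edgeR adjusted p = 3.84e-30). Gclc rose by 0.16 ± 0.035 at 5760 min in KO control (edgeR adjusted p = 7.33e-05) and by 0.34 ± 0.036 at 1440 min in WT control (edgeR adjusted p = 4.54e-14), with 12 of 12 libraries higher in each line for both genes. In TPM the libraries of Gclc at 0 and 720 min, 27.9 to 32.4 in KO control, overlapped the later ones at 29.3 to 33.5.

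**Figure D1:**
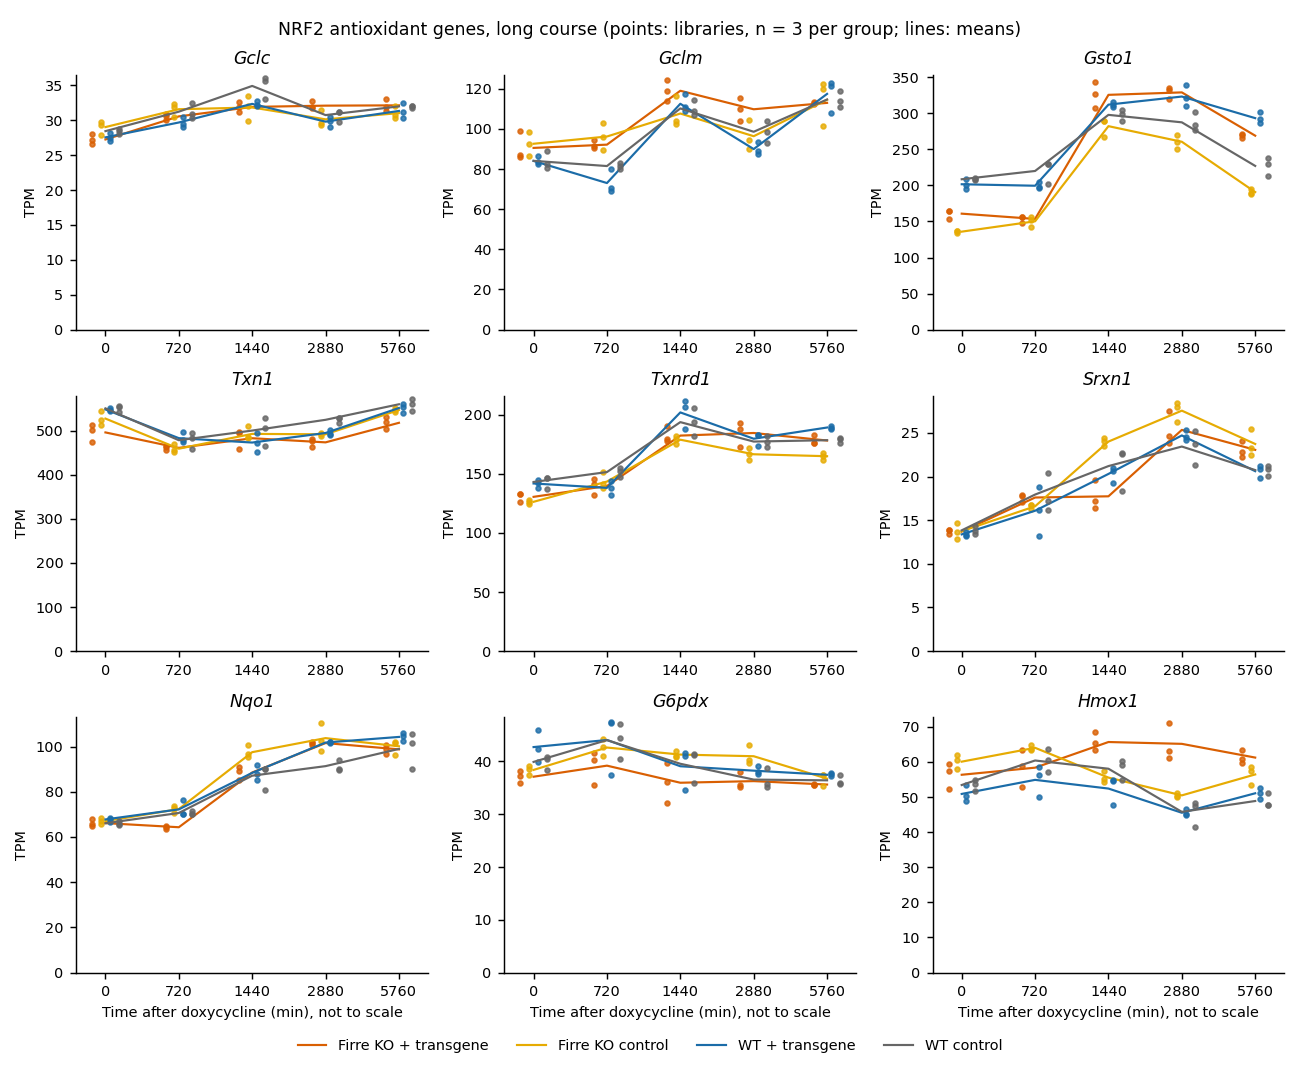
TPM of the 9 members in each library of the long course (points, n = 3 per group) with group means (lines), against minutes after doxycycline at evenly spaced positions. Gsto1, Srxn1, Nqo1 and Txnrd1 sit higher at 1440 and 2880 min than at 0 min in all 4 lines, and at 0 min Gsto1 is lower in both Firre KO lines than in both WT lines.

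On counts, Hmox1 and G6pdx did not follow the other members, and Txn1 followed them less closely. Over the 20 group means of the long course the log2 level of a member and the mean of the other 8 had a Pearson r of -0.12 for Hmox1 and -0.16 for G6pdx, against 0.68 for Txn1 and 0.83 to 0.94 for the other 6, as a description of groups that share libraries. These levels were scaled counts with no correction for transcript length, on which the direction of Txn1 depends, as given below. Hmox1 fell by 0.28 ± 0.043 at 2880 min in KO control (edgeR adjusted p = 3.08e-08), where it had 50.03, 50.2 and 51.2 TPM against 61.9, 58.0 and 60.4 TPM at 0 min, without overlap. With length offsets the fall was 0.14 (edgeR adjusted p = 0.0377). In WT control the fall was 0.13 ± 0.045 (edgeR adjusted p = 6.32e-04, 7 of 12 libraries), and -0.083 without replicate 3, which did not pass (edgeR adjusted p = 0.139).
G6pdx fell by 0.13 ± 0.036 at 720 min in KO control (edgeR adjusted p = 6.26e-03) and gave -0.037 ± 0.036 in WT control (edgeR adjusted p = 0.566). The fall in KO control did not pass without replicate 2 or 3 (edgeR adjusted p = 0.0980 and 0.103). Txn1 rose on counts by 0.17 ± 0.031 in KO control and 0.25 ± 0.031 in WT control at 2880 min (edgeR adjusted p = 1.61e-10 and 3.40e-13), yet in TPM it had 493, 494 and 489 at 2880 min against 525, 512 and 546 at 0 min in KO control. The directions of Txn1, G6pdx and, in WT control, Hmox1 depend on how transcript length is treated. The ratio of count to TPM, relative to that of the median gene, ran for Txn1 between 0.291 and 0.333 at 720 to 2880 min and between 0.285 and 0.297 at 0 and 5760 min, so libraries of the middle times gave more counts per TPM. For Gsto1 the ranges were 0.406 to 0.432 and 0.411 to 0.424. With limma on log2 TPM the change of Txn1 was -0.20 in both controls (adjusted p = 3.90e-07 in KO and 1.04e-06 in WT control) and that of G6pdx 0.15 in KO and 0.14 in WT control (adjusted p = 0.0536 and 6.59e-03), where the median of all genes stood at -0.086 and -0.16. With offsets for length in edgeR, an alternative added after seeing the data, Txn1 gave -0.25 and -0.22, G6pdx 0.20 in KO control and Hmox1 0.19 in WT control (adjusted p = 4.94e-08, 1.59e-08, 0.0154 and 6.86e-04). G6pdx also shares 418 exon bases with Ikbkg on the other strand, which libraries that do not mark strand cannot separate.

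Other genes of the pathway, were taken in 6 lists drawn up with earlier results of these data known. Their counts stand beside 59.6% of all genes called in KO control (median -0.058) and 54.8% in WT control (median -0.072), and nothing particular to a list is read from them. Of the genes named below only Txnip fell, so the names do not stand for their lists, in which others fell too. Of 9 NRF2 regulators, 5 rose and 2 fell in KO control (median 0.17) and 8 rose in WT control (median 0.30). Keap1, the inhibitor of NRF2, rose by 0.46 ± 0.048 in KO control and 0.46 ± 0.049 in WT control, and Bach1, the competing repressor, by 0.58 ± 0.041 and 0.33 ± 0.041 (edgeR adjusted p = 2.27e-19, 9.06e-17, 3.38e-23 and 1.74e-11). Nfe2l2, which encodes NRF2 itself, rose by 0.33 ± 0.033 in KO control and by 0.11 ± 0.033 in WT control (edgeR adjusted p = 9.00e-19 and 1.04e-06). Of 12 further glutathione genes 5 rose and 4 fell in KO control (median 0.15), and 8 rose and 2 fell in WT control (median 0.32). Gsr, glutathione reductase, was among those that rose, by 0.20 in KO and 0.32 in WT control. The 10 thioredoxin and peroxiredoxin genes had 1 that rose and 6 that fell in KO control (median -0.17), and 4 and 3 in WT control (median 0.094). Txnip, the inhibitor of thioredoxin, fell by 0.50 in KO and by 0.78 in WT control. Of 9 genes for NADPH and the pentose phosphate pathway 5 rose and 3 fell in KO control (median 0.31), and 7 and 2 in WT control (median 0.23). Pgd, which makes NADPH in the third step of that pathway, rose by 0.35 in KO and 0.36 in WT control, and Me1, cytosolic malic enzyme, by 0.68 and 0.63. Of 7 genes of heme and iron handling 4 rose and 1 fell in KO control (median 0.30), and 3 rose in WT control (median 0.20), among them the ferritin heavy chain Fth1 by 0.43 and 0.55. Of 11 detoxification genes 5 rose and 4 fell in KO control (median 0.17), and 6 and 3 in WT control (median 0.15), with Cbr3, a carbonyl reductase, up by 0.95 and 1.11.

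The rise over time was not equal in the controls. In a test added after seeing the data, the change in KO control minus that in WT control was positive for 3 members and negative for 3, where 18.8% of all genes differed (9.92% higher and 8.93% lower). Gsto1 rose more in KO control, by 0.51 ± 0.048 at 1440 min (edgeR adjusted p = 7.88e-16, 11 of 12 libraries). Srxn1 rose more by 0.24 ± 0.059 at 2880 min and Nqo1 by 0.13 ± 0.056 at 1440 min (edgeR adjusted p = 5.13e-03 and 0.0249). The change in KO control was lower for Hmox1 by 0.30 ± 0.061, for Gclm by 0.29 ± 0.047 and for Gclc by 0.18 ± 0.050 (edgeR adjusted p = 4.21e-04, 3.31e-08 and 0.0189). With limma on log2 TPM Gsto1 was the 1 member that still passed, and the adjusted p of the other 5 ran between 0.0978 and 0.202. In edgeR the calls of Srxn1 and Nqo1 were lost without replicate 2 or 3, that of Gclc without replicate 1 or 2 and that of Hmox1 without replicate 3, with adjusted p between 0.0754 and 0.570. With length offsets in edgeR the same 5 were lost, Gclm included, with adjusted p between 0.0588 for Gclm and 0.159 for Srxn1. Nfe2l2 also rose more in KO control, by 0.31 ± 0.046 (edgeR adjusted p = 3.21e-08).

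The comparison of KO control with WT control sets a line without Firre against a line with it. Each genotype is 1 control line, so the deletion and other differences between the lines cannot be told apart. At 0 min Gsto1 was lower in KO control in both courses, and the other members that differed did so in 1 course or in opposite directions. At 0 min of the long course 2 members were higher and 2 lower, where 35.1% of all genes differed (16.5% higher and 18.6% lower). At 0 min of the short course 1 was higher and 3 were lower, where 7.51% differed (3.41% higher and 4.1% lower).
Gsto1 had 137, 137 and 134 TPM in KO control and 210, 209 and 207 TPM in WT control at 0 min of the long course. The short course gave 278 and 316 TPM in KO control and 354 and 351 TPM in WT control. The groups did not overlap in either course. The difference was -0.60 ± 0.035 in the long course (edgeR adjusted p = 3.82e-25, 3 of 3 libraries) and -0.25 ± 0.061 in the short course (edgeR adjusted p = 5.16e-03, 2 of 2).
Hmox1 went opposite ways in the courses: it had 61.9, 58.0 and 60.4 TPM in KO control and 51.8, 54.9 and 53.6 TPM in WT control in the long course, but 41.2 and 42.4 TPM in KO control and 54.8 and 55.5 TPM in WT control in the short course. The long course gave 0.18 ± 0.042 and the short course -0.33 ± 0.071 (edgeR adjusted p = 3.80e-04 and 1.45e-03). Neither pair of groups overlapped.
Txnrd1 was lower in KO control by 0.16 ± 0.026 in the long course (edgeR adjusted p = 6.56e-07), with 125, 128 and 126 TPM against 146, 146 and 137 TPM in WT control, and stood at -0.063 ± 0.061 in the short course (edgeR adjusted p = 0.615). Nqo1 was higher in KO control by 0.27 ± 0.053 in the short course (edgeR adjusted p = 4.25e-04), with 91.0 and 86.5 TPM against 73.1 and 76.4 TPM in WT control, and gave 0.022 ± 0.040 in the long course (edgeR adjusted p = 0.724). The difference between the contrasts of the courses was not tested.
On counts, Gclm was higher in KO control of the long course by 0.15 ± 0.033 and lower in that of the short course by 0.23 ± 0.063 (edgeR adjusted p = 2.49e-04 and 0.0141), but in the short course its TPM values overlapped, at 117 and 89.9 in KO control and 115 and 108 in WT control. The antisense gene Gm17494 shares 296 exon bases with Gclm and was higher in KO control, by 0.50 ± 0.093 (long) and 1.01 ± 0.22 (short) (edgeR adjusted p = 3.06e-05 and 1.87e-03). Without strand in the libraries, reads of the shared part cannot be told apart. Neither call of Gclm passed with limma on log2 TPM (0.14, adjusted p = 0.135, in the long course and -0.12, adjusted p = 0.543, in the short course) or with length offsets (adjusted p = 0.104 and 0.529).

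Averaged over all times, 3 members were higher and 4 lower in KO control in the long course, where 52.2% of all genes differed (23.6% higher and 28.6% lower), and 2 were higher and 4 lower in the short course, where 45.7% differed (23.7% higher and 22.1% lower). Gsto1 gave -0.36 ± 0.015 in the long and -0.21 ± 0.018 in the short course (edgeR adjusted p = 9.73e-34 and 6.89e-16), with all 15 and all 24 libraries of KO control on that side. In the short course the WT transgene line was low as well, at 280 to 342 TPM with a median of 316. KO control had 278 to 338 TPM with a median of 310, and WT control 326 to 387 TPM with a median of 354. Hmox1 ran between 41.2 and 49.6 TPM in the 24 KO control libraries of the short course, with a median of 43.8, and between 52.3 and 57.4 TPM in the 24 of WT control, with a median of 54.6, and the lines did not overlap. It was lower by 0.23 ± 0.021 there and higher by 0.066 ± 0.020 in the long course (edgeR adjusted p = 1.81e-15 and 3.11e-03). Nqo1 was higher by 0.20 ± 0.015 in the short and 0.055 ± 0.018 in the long course (edgeR adjusted p = 3.66e-18 and 6.94e-03). G6pdx was lower by 0.12 ± 0.016 in the short course (edgeR adjusted p = 1.56e-08), with a median of 36.6 TPM in KO control and 40.9 TPM in WT control. Txnrd1 was lower by 0.14 ± 0.012, Txn1 by 0.072 ± 0.014 and Gclc by 0.070 ± 0.016 in the long course (edgeR adjusted p = 7.04e-18, 1.13e-05 and 1.28e-04). Srxn1 was higher by 0.050 ± 0.019 in the long and 0.088 ± 0.017 in the short course (edgeR adjusted p = 0.0197 and 1.83e-05), but in limma on TPM the value of the short course did not pass (adjusted p = 0.449). In the long course that of Srxn1 was lost without replicate 1 or 3 and that of Nqo1 without replicate 2 or 3 (edgeR adjusted p between 0.0514 and 0.0615). That of Gclc was lost with limma on log2 TPM, at -0.032 (adjusted p = 0.127). Gclm was lower by 0.24 ± 0.018 in the short course (edgeR adjusted p = 3.80e-18), and by 0.11 with limma on log2 TPM and 0.10 with length offsets (adjusted p = 7.07e-04 and 4.66e-04). With its counts summed with those of Gm17494, which shares exon bases with it, the sign turned to 0.12 (edgeR adjusted p = 8.90e-05).
Of the 9 NRF2 regulators, 4 were higher and 4 lower in KO control before treatment in the long course (median 0.17, against -0.014 over all genes), where 35.1% of all genes differed. Sqstm1, the autophagy receptor that draws KEAP1 away from NRF2, was higher by 0.50 ± 0.028 and Nfe2l1, a relative of NRF2, by 0.43 ± 0.027, while Nfe2l2 was lower by 0.34 ± 0.032 (edgeR adjusted p = 4.87e-26, 2.14e-23 and 9.66e-15). Nfe2l2 had 59.3 ± 0.49 TPM in KO control and 75.7 ± 1.31 TPM in WT control (SD, n = 3). Over all times of that course 4 regulators were higher and 4 lower (median -0.089), where 52.2% of all genes differed. At 0 min of the short course 0 were higher and 1 lower (median -0.10), where 7.51% of all genes differed. Over all times of the short course 3 were higher and 2 lower (median -0.015), where 45.7% differed.

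**Figure D2:**
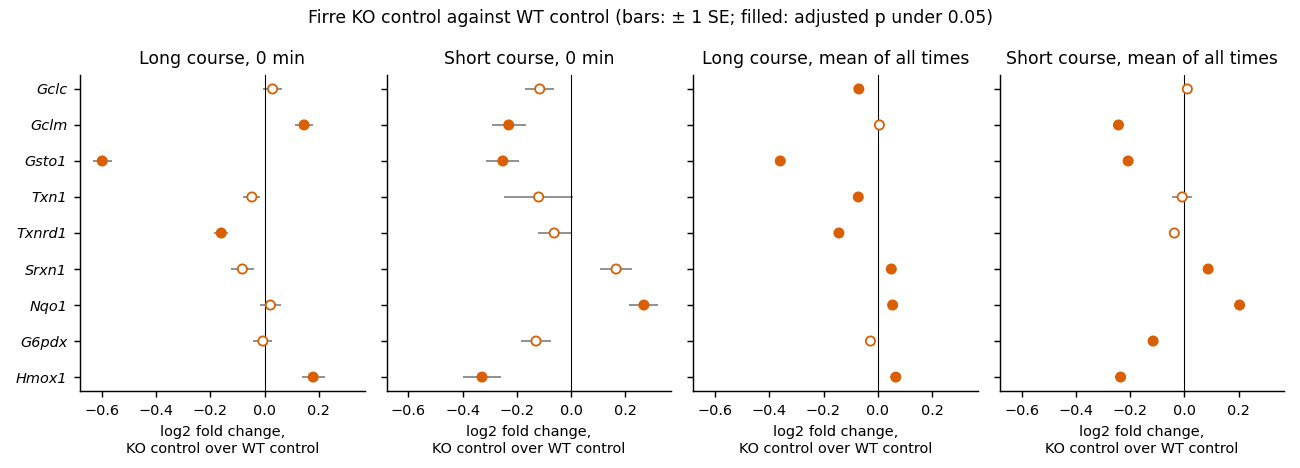
Log2 fold change of each member in Firre KO control over WT control (points, bars ± 1 SE) at 0 min and averaged over all times, in both courses; filled points have an edgeR adjusted p under 0.05. Gsto1 lies left of 0 in all 4 panels, and Hmox1 lies right of 0 in the long course and left of it in the short course.

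Before doxycycline the transgene lines differed from their controls in at most 1 of these genes in each comparison. Gsto1 had 164, 165 and 153 TPM in the KO transgene line and 137, 137 and 134 TPM in KO control of the long course (0 min), a difference of 0.22 ± 0.035 (edgeR adjusted p = 4.45e-06), the 1 member that differed there, where 3.54% of all genes did (1.83% higher and 1.71% lower). In the WT background of the long course G6pdx was higher in the transgene line by 0.12 ± 0.035 (edgeR adjusted p = 0.0112), where 13.2% of all genes differed (7.22% higher and 5.94% lower). This call was lost without replicate 1 or without replicate 2, with values of 0.075 and 0.11. Nqo1 was lower in the KO transgene line of the short course by 0.25 ± 0.053 (edgeR adjusted p = 0.0269, background 0.161%, with 0.0666% higher and 0.0944% lower), with 77.3 and 76.2 TPM against 91.0 and 86.5 TPM in KO control. It did not pass with limma on log2 TPM or with only the lines compared in the fit (adjusted p = 0.0571 and 0.0841). In the WT background of the short course 0 members passed in edgeR and in DESeq2, 1 had an unadjusted p under 0.05, and 2.93% of all genes differed (1.06% higher and 1.88% lower).

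The response to induced Firre in the KO background (rescue) is what the KO transgene line changed since 0 min beyond the change of KO control. In the long course 5 members rose and 1 fell in this response, where 11.5% of all genes changed (5.56% higher and 5.97% lower). The median over the members was 0.12, against -0.053 over all genes. The mitochondrial share at 1440 min was 4.90 to 5.12% in the KO transgene line and 4.49 to 4.54% in KO control, without overlap, and its part in the response was not tested.
Hmox1 had the largest response. At 2880 min it had 71.2, 61.2 and 63.1 TPM in the KO transgene line and 50.03, 50.2 and 51.2 TPM in KO control, while at 0 min it had 59.4, 52.3 and 57.3 TPM in the transgene line and 61.9, 58.0 and 60.4 TPM in the control. The groups of 1440 min, at 68.5, 65.3 and 63.3 TPM in the transgene line and 55.0, 57.3 and 54.3 TPM in the control, did not overlap either, whereas those of 720 min did. The response was near 0 at 720 min (0.03), stood at 0.45 at 1440 min, peaked with 0.47 ± 0.061 at 2880 min and was 0.20 in the last samples (edgeR adjusted p = 4.55e-11 over the times, 12 of 12 libraries). It passed under every alternative run, with adjusted p of at most 1.91e-04.
Srxn1 went the other way. At 1440 min it had 19.7, 17.1 and 16.4 TPM in the KO transgene line and 23.6, 24.5 and 24.0 TPM in KO control, without overlap, and at 720 min the transgene line had 17.1, 17.9 and 17.8 TPM and the control 16.7, 16.8 and 16.3 TPM. The response at 1440 min was -0.38 ± 0.059 (edgeR adjusted p = 1.46e-06, 12 of 12 libraries) and passed under every alternative run, with adjusted p of at most 0.0213. At 2880 and 5760 min it was -0.18 and -0.24.
Gsto1 changed sign within the course. It had 156, 148 and 156 TPM in the KO transgene line and 152, 157 and 143 TPM in KO control at 720 min, and 266, 271 and 270 TPM in the transgene line and 188, 195 and 189 TPM in the control at 5760 min. The last groups did not overlap, but the line had begun higher. The response began at -0.18 (720 min), passed through -0.01 (1440 min) and 0.12 (2880 min) and ended at 0.26 ± 0.049 (5760 min) (edgeR adjusted p = 7.74e-10). Without replicate 3 the largest value was that of 720 min, at -0.24.
The glutathione subunits rose together with Txnrd1 by smaller amounts at 2880 min, Gclm by 0.26 ± 0.047, Gclc by 0.21 ± 0.050 and Txnrd1 by 0.12 ± 0.037 (edgeR adjusted p = 2.07e-06, 0.0122 and 1.03e-03). All 3 missed the threshold with limma on log2 TPM (adjusted p = 0.236, 0.145 and 0.270), Gclc also without replicate 1 or 2 and Txnrd1 without replicate 2 (edgeR adjusted p = 0.225, 0.177 and 0.392). With length offsets Gclm and Gclc missed it as well (edgeR adjusted p = 0.152 and 0.0862). For Gclm, TPM at 2880 min was 110, 116 and 104 in the KO transgene line and 105, 90.1 and 94.5 in KO control, which overlapped.
Of the regulators 0 of 9 passed in edgeR, 3 had an unadjusted p under 0.05, and DESeq2 gave 1 higher and 1 lower. The counts of the lists stand beside 11.5% of all genes called in this response. Of 7 genes of heme and iron handling 1 passed, Fth1, the ferritin heavy chain, which stores the iron that heme breakdown frees. Fth1 rose by 0.30 (edgeR adjusted p = 7.74e-10) and had 773 ± 25.9 TPM in the KO transgene line and 624 ± 20.01 TPM in KO control at 1440 min (SD, n = 3). Of 12 glutathione genes 3 rose and 1 fell, led by Glrx, glutaredoxin, at 0.78, with 21.7 ± 0.45 TPM in the transgene line and 10.6 ± 1.29 TPM in the control at 1440 min. Of 10 thioredoxin and peroxiredoxin genes 3 rose, Prdx1, Prdx4 and Prdx6, by 0.32, 0.27 and 0.17. Fth1 and Prdx1 have processed copies in the genome, among which reads may be split. Of 9 NADPH genes Pgd fell, by 0.15, and of 11 detoxification genes 2 rose and 3 fell.

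In the WT background (overexpression) the same contrast moved 2 members in the long course, where 9.79% of all genes changed (4.16% higher and 5.63% lower). Gsto1 rose by 0.33 ± 0.048 at 5760 min (edgeR adjusted p = 1.09e-09, 9 of 12 libraries), with 301, 287 and 292 TPM in the WT transgene line and 237, 230 and 213 TPM in WT control, which did not overlap. At 0 min the transgene line had 201, 209 and 196 TPM and the control 210, 209 and 207 TPM. Gclm fell by 0.13 ± 0.049 at 720 min (edgeR adjusted p = 3.65e-03), a call that was lost when any 1 replicate was left out. Hmox1 gave -0.097 ± 0.062 and Srxn1 0.048 ± 0.059 (edgeR adjusted p = 0.365 and 0.806).
The difference between the backgrounds was tested directly. It passed for 4 members, where 5.32% of all genes differed (2.68% higher and 2.64% lower). The response in the KO background was higher for Hmox1 by 0.54 ± 0.086 at 1440 min, for Gclm by 0.34 ± 0.067 and for Gclc by 0.25 ± 0.071, both at 2880 min, and lower for Srxn1 by 0.38 ± 0.085 at 1440 min (edgeR adjusted p = 1.24e-07, 1.05e-03, 0.0268 and 5.01e-03). For Gsto1 it gave -0.083 ± 0.068 (edgeR adjusted p = 0.879). With limma on log2 TPM 0 of the 4 passed, with adjusted p between 0.0698 for Hmox1 and 0.561 for Gclc, and with the offsets for length Hmox1 passed. In edgeR the call of Srxn1 was lost without replicate 2 or 3, that of Gclm without replicate 2, and that of Gclc when any 1 replicate was left out.

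**Figure D3:**
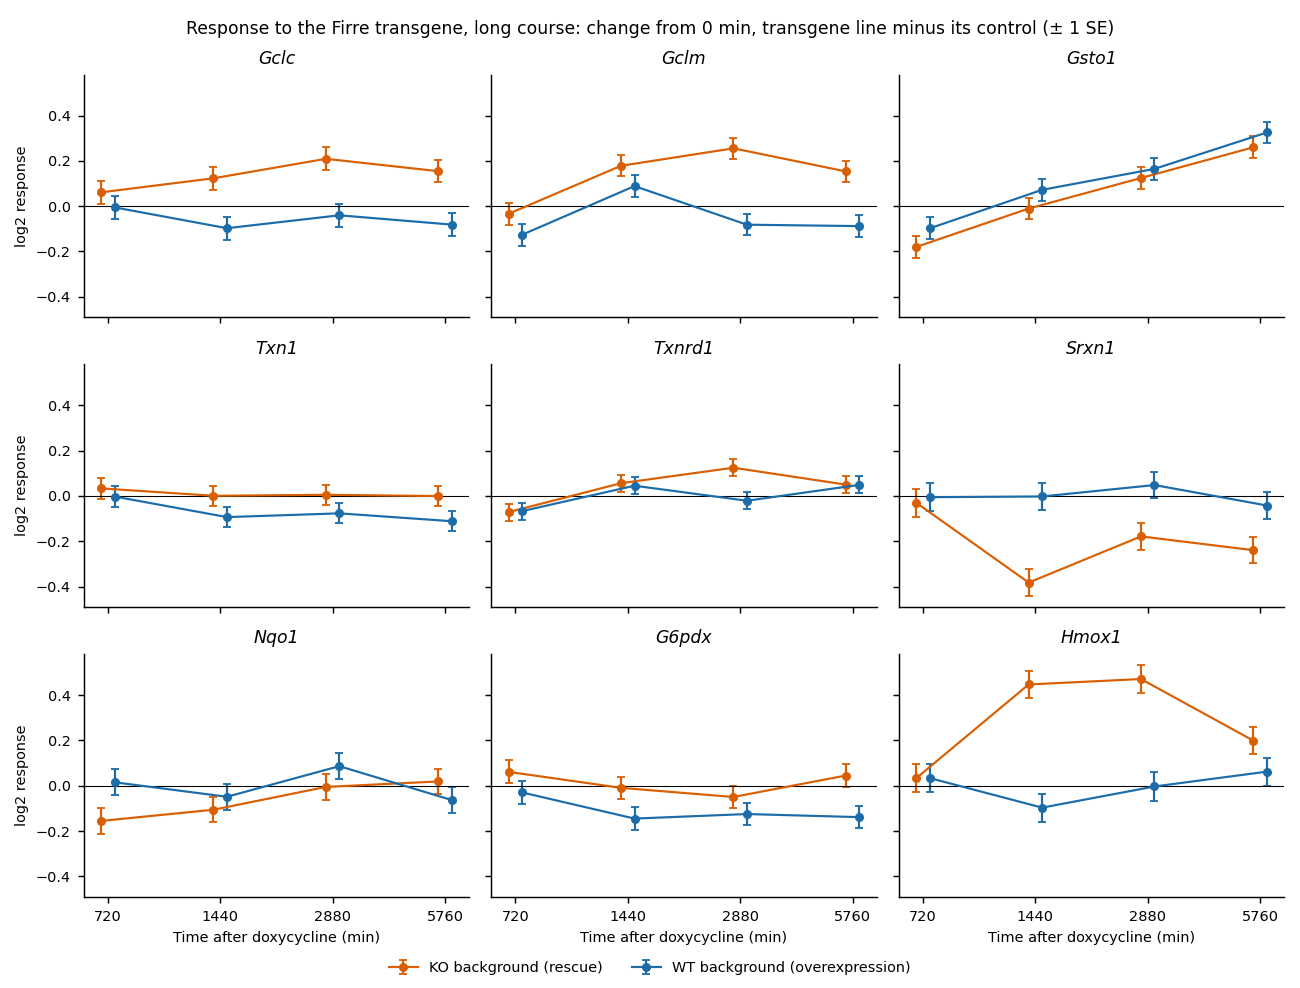
Response of each member to the transgene in the long course, as the log2 change since 0 min beyond that of the matched control, in the KO (rescue) and WT (overexpression) backgrounds, against minutes after doxycycline at evenly spaced positions (bars ± 1 SE). Hmox1 lies at 0.45 and 0.47 at 1440 and 2880 min and Srxn1 at -0.38 at 1440 min in the KO background, and Gsto1 climbs in both backgrounds to 0.26 and 0.33 at 5760 min.

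Within the first 330 min these genes moved little. The change from 0 min, tested as a smooth curve over 12 times, passed for 2 members in KO control, where 13.3% of all genes changed (6.96% higher and 6.31% lower), and for 1 in WT control, where 21.8% did (12.0% higher and 9.8% lower). In WT control Gclc fell by 0.13 ± 0.040 on average over the 11 times after 0 min (edgeR adjusted p = 8.57e-03, 21 of 22 libraries), with 36.8 and 41.1 TPM at 0 min and a median of 35.5 TPM over its 24 libraries. Without replicate 2 it gave -0.066 and did not pass (edgeR adjusted p = 0.387). In KO control Gclc and Txnrd1 passed with mean changes of 0.010 ± 0.040 and 0.052 ± 0.045 (edgeR adjusted p = 0.0188 and 0.0106), so the curve and not the mean changed, and neither was called without replicate 2. The value for Gclc there was -0.046 without replicate 2. The curve of Gclc differed between the controls (edgeR adjusted p = 9.20e-03, background 4.93%, with 2.37% higher and 2.55% lower), by 0.14 ± 0.057 on average, but not without replicate 2, with a value of 0.019 (edgeR adjusted p = 0.464).
Firre itself had 173 and 171 TPM in the KO transgene line and 1.04 and 0.78 TPM in KO control at 330 min. Its own response averaged 7.57 ± 0.41 yet did not pass in the test of the curve used for the members (edgeR adjusted p = 0.238), so few calls there say little. In that background 1 member passed, Gsto1 with a mean of -0.031 ± 0.064 (edgeR adjusted p = 0.0152, background 1.82%, with 0.755% higher and 1.07% lower), which was lost without replicate 1, at 0.024, and without replicate 2. In the WT background Srxn1 fell by 0.24 ± 0.062 (edgeR adjusted p = 9.94e-03, 22 of 22 libraries), where 0.7% of all genes changed (0.505% higher and 0.194% lower). Over the course Srxn1 ran between 12.9 and 17.7 TPM in the WT transgene line, with a median of 14.5, and between 16.4 and 22.2 TPM in WT control, with a median of 18.4. At 0 min it had 16.3 and 14.98 TPM in the transgene line and 16.9 and 16.4 TPM in the control, so the lines were nearer before doxycycline. This call was lost with 1 coefficient per time and with limma on log2 TPM (adjusted p = 0.506 and 0.958), and without replicate 2 (edgeR adjusted p = 1.0). The difference between the backgrounds passed for 0 members in edgeR, where 2 had an unadjusted p under 0.05 and 0.0167% of all genes passed (0.0111% higher and 0.00555% lower), and for 2 in DESeq2, Gsto1 and Nqo1.

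**Figure D4:**
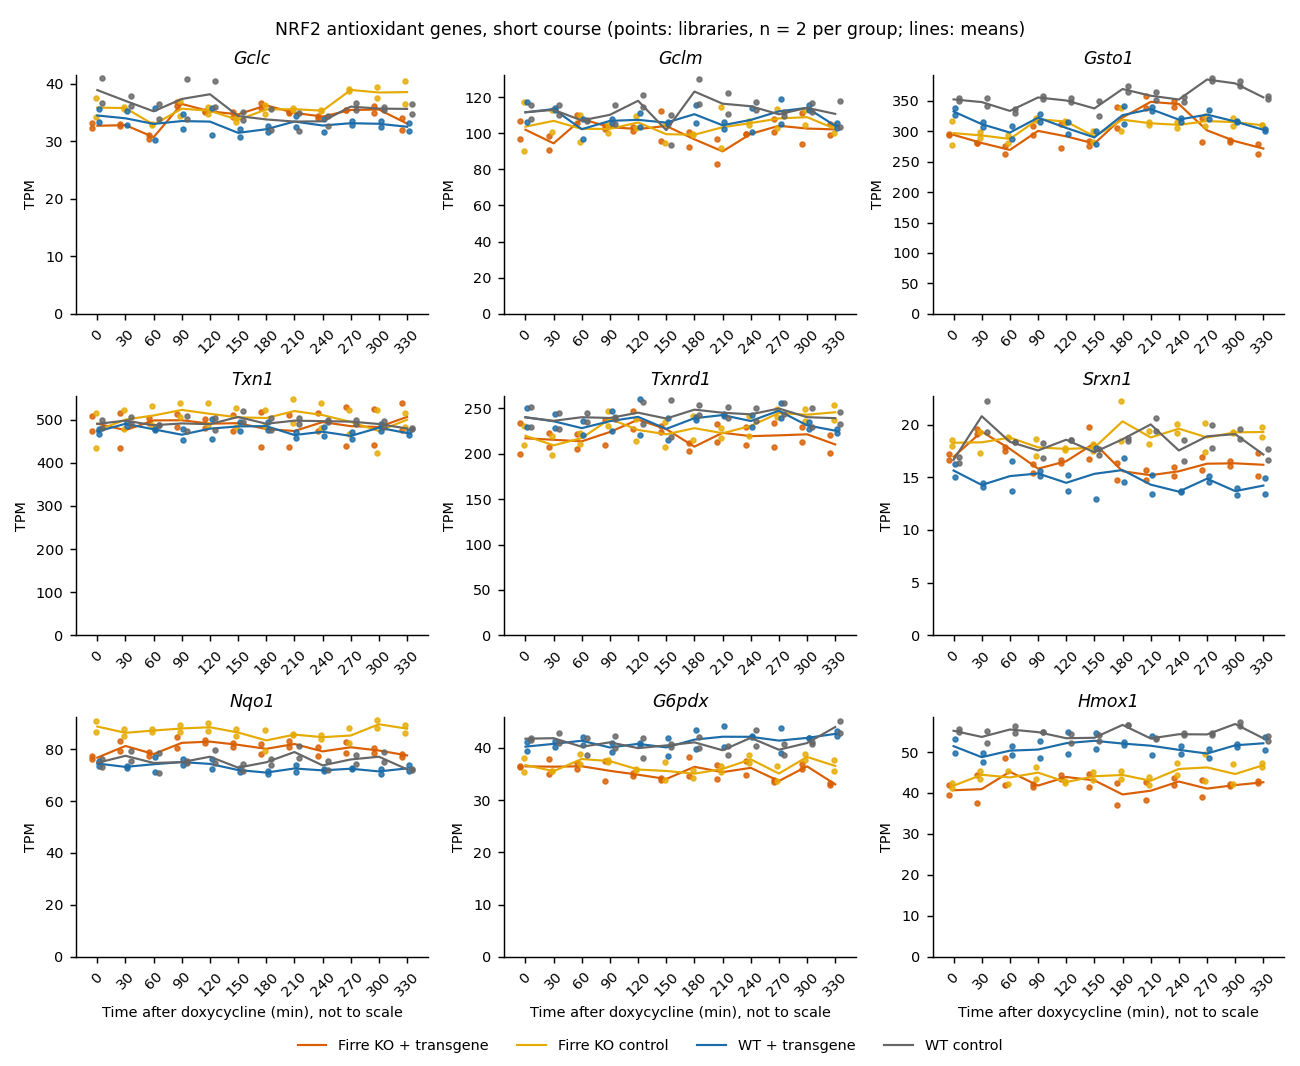
TPM of the 9 members in each library of the short course (points, n = 2 per group) with group means (lines), against minutes after doxycycline. Hmox1 and G6pdx run lower and Nqo1 higher in Firre KO control than in WT control, and Srxn1 runs lowest in the WT transgene line.

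The genes whose group means on counts followed the members most closely, as a Pearson correlation with the mean of the members' z-scores, were Cd63 (0.946), Reep3, Nodal, Clta and Pcdhgc3 over the 20 groups of the long course. Over the 48 groups of the short course they were Gsr (0.905), Socs2, Sod2, Pgd and Hspb8. Of these, Gsr, Sod2 and Pgd stood in the pathway lists. Within the short course Nqo1 was the member least like the mean of the others (r = -0.13), and Txnrd1 and Gsto1 were the most alike to it (r = 0.66 for each). Groups share lines, times and libraries, so these values describe and were not tested.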

How the data were processed

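RNA-seq of poly(A) RNA, in libraries that do not mark strand, was quantified with Salmon 1.5.2 on mm10, per the submitters' processing notes. The deposited expected counts per gene, of which 76.0% were whole, and the deposited TPM values were used as given, 1 value per gene and library. The annotation and the way transcripts were summed to genes are not given in the sources used here. Expected counts were rounded, filtered (filterByExpr, minimum count 10, minimum total 15), scaled by TMM and tested with edgeR 4.0.16 (quasi-likelihood, R 4.3.3), with p adjusted by Benjamini-Hochberg over all genes at 0.05. All lines of a course shared 1 fit, with 1 coefficient per line and time in the long course, and a natural spline with 3 degrees of freedom for changes and responses in the short course. A change was tested over all later times and its fold change taken at the time of the largest size (long) or as the mean of the later times (short). Standard errors belong to that single contrast (the size of the fold change over the square root of its F). Alternatives were DESeq2 1.42.0, other scaling and filtering, and limma 3.58.1 on log2(TPM + 1). Comparisons of one line's change share its 0 min libraries, and rescue and change over time share KO control. The members and lists were chosen with earlier results of these data known. Named were the members, up to 4 passing genes per list by smallest adjusted p, Firre, and the 5 genes per course most correlated with the members. Depth of 18961799 to 47948630 counts left every member at 558 or more counts. A check of the fits on simulated data with known changes covered the rescue response only, and not the other contrasts.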

Additional observations from a re-analysis of the deposited data

Results flagged for a closer look

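For 6 members the change over time differed between the controls of the long course in a test of the difference itself, where 18.8% of all genes differed. With limma on log2 TPM, and with length offsets in edgeR, Gsto1 alone of the 6 passed. The change in KO control minus that in WT control was 0.51 for Gsto1, 0.24 for Srxn1, 0.13 for Nqo1, -0.30 for Hmox1, -0.29 for Gclm and -0.18 for Gclc (log2). For Gsto1 the difference passed in every alternative run, and KO control began lower, at 137, 137 and 134 TPM, against 210, 209 and 207 TPM in WT control at 0 min. For 4 members the response to the transgene differed between the backgrounds in the long course, where 5.32% of all genes differed. With limma on log2 TPM none of these 4 passed. The response in the KO background minus that in the WT background was 0.54 for Hmox1, 0.34 for Gclm, 0.25 for Gclc and -0.38 for Srxn1. In the short course the curve of Gclc differed between the controls, by 0.14 on average, where 4.93% of all genes differed. It did not pass with 1 coefficient per time (edgeR adjusted p = 0.170), and its value was 0.019 without replicate 2. What lies behind these differences was not tested.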

How the results depend on the processing

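Counts below are genes or members past an adjusted p of 0.05, with the value as reported in brackets, and the cause of each move was not tested. Calls for the change of Gsto1, Srxn1, Nqo1, Txnrd1, Gclm and Gclc over time in both controls of the long course, for Gsto1 and Txnrd1 in KO against WT control of that course, for the rescue response of Hmox1 and Srxn1 and for the overexpression response of Gsto1 were kept in every alternative run. Scaling by size factors kept all 65 calls. Directions that turned were those of Txn1 (-0.20 in both controls with limma on TPM, -0.25 in KO and -0.22 in WT control with length offsets), G6pdx (0.15 in KO and 0.14 in WT control with limma, 0.20 in KO control with offsets) and Hmox1 in WT control (0.19 with offsets). With 1 replicate left out, Gsto1 ran between -0.24 (without replicate 3) and 0.29 in the long rescue response and between -0.086 and 0.024 (without replicate 1) in the short one. Gclc in KO control of the short course gave -0.0019 with no filter and -0.046 to 0.054 with 1 replicate left out. The summed counts of Gclm and Gm17494, added after seeing the data, gave 0.14 at 0 min and 0.12 over all times of the short course, the reverse of Gclm alone. Gm17494 was counted higher in KO control. Reads of the part the genes share cannot be told apart, so the sum does not settle the direction of Gclm.
With DESeq2, the long overexpression response had 2 members lower (1). In the short course the KO transgene line differed at 0 min in 64 genes (29). The rescue response had 572 genes (328), 1 member higher (0) and 2 lower (1), and the difference of responses 123 genes (3) and 2 members higher (0). With no filter, the long rescue response had 2 members lower (1). In the short course the KO transgene line had 261 genes (29), the change in KO control 1 member higher (2) and 1 lower (0), that in WT control 1 higher (0), the rescue response 1131 genes (328) and 1 member higher (0), the overexpression response 469 genes (126) and 0 members lower (1), and the difference of responses 564 genes (3) and 1 member higher (0).
With limma on log2 TPM, the long course gave 3972 genes (6171) and 1 member higher (2) for KO against WT control at 0 min. The transgene lines at 0 min gave 181 genes (622) in the KO and 897 (2312) and 0 members higher (1) in the WT background. The change in WT control had 2 members lower (1), and that in KO minus WT control 1453 genes (3311), 1 member higher (3) and 0 lower (3). The rescue response had 755 genes (2024) and 2 members higher (5), the overexpression response 681 genes (1720) and 0 members lower (1), and their difference 297 genes (934) and 0 members higher (3) or lower (1). In the short course it gave 1 member higher (2) for KO control over all times, 11 genes (29) and 0 members lower (1) for the KO and 285 genes (528) for the WT transgene line at 0 min, 1423 genes (2390) for the change in KO control, 399 (887) for KO minus WT control, 132 (328) for the rescue response and 0 members lower (1) for the overexpression response.
With length offsets, added after seeing the data, the long course gave 4108 genes and 1 member higher for KO against WT control at 0 min, 228 genes for the KO and 1028 genes and 0 members higher for the WT transgene line, 1386 genes, 1 member higher and 0 lower for the change in KO minus WT control, 840 genes and 3 members higher for the rescue response, 659 genes and 0 members lower for the overexpression response, and 313 genes, 1 member higher and 0 lower for their difference. In the short course it gave 1 member higher for KO control over all times, 9 genes and 0 members lower for the KO and 308 genes for the WT transgene line, 1537 genes and 1 member higher for the change in KO control, 554 genes for KO minus WT control, 172 genes for the rescue response, 0 members lower for the overexpression response and 1 gene for the difference of responses.
With only the lines compared in the fit, the short course gave 8 genes and 0 members lower for the KO and 835 genes for the WT transgene line at 0 min, 1 member higher for the change in each control, 104 genes and 0 members lower for the rescue response, and 204 genes and 2 members lower for the overexpression response. With 1 coefficient per time, it gave 1031 genes and 1 member higher for the change in KO control, 2021 genes (3918) in WT control, 198 genes and 0 members higher for KO minus WT control, 171 genes and 0 members lower for the rescue response, and 46 genes and 0 members lower for the overexpression response.
Replicate numbers showed little pairing of the samples: deviations of same-numbered samples correlated between -0.106 and 0.077 in 93 long pairs and between -0.099 and 0.171 in 146 short pairs, 4 of them over 0.1. These counts hold repeats, as the same pair can serve more than 1 comparison. With 2 replicates, each short value also appears for both replicate numbers. With the replicate block all 65 calls were kept. The block gave 2 members lower (1) in the long rescue response, 82 genes (29) in the KO transgene line at 0 min of the short course and 1 member higher (0) in the change in its WT control.
Leaving out 1 replicate number at a time in the long course gave 1 to 2 members higher (3) for KO control over all times, 245 to 319 genes (622) for the KO and 1105 to 1450 (2312) and 0 to 1 members higher for the WT transgene line. The changes over time had 1 to 2 members lower (2) in KO and 0 to 1 (1) in WT control, and 1564 to 2587 genes (3311) and 1 to 3 members higher (3), 2 to 3 lower (3), between them. The rescue response had 742 to 1278 genes (2024), 3 to 4 members higher (5) and 1 to 3 lower (1), the overexpression response 317 to 1656 genes (1720) and 0 members lower (1), and their difference 222 to 877 genes (934), 1 to 2 members higher (3) and 0 to 1 lower (1). In the short course the changes had 779 to 1176 genes (2390) and 1 member higher (2) in KO control, 2245 to 3546 genes (3918), 0 to 1 members higher (0) and 0 to 1 lower (1) in WT control, and 360 to 584 genes (887) between them. The rescue response had 48 to 332 genes (328) and 0 members lower (1), the overexpression response 51 to 812 genes (126) and 0 to 3 members lower (1), and their difference 1 to 243 genes (3). The contrasts at 0 min and over all times of the short course then had no residual degrees of freedom and were values with no test. Without replicate 3 of WT control at 1440 min, a library that stood apart, the difference of Nqo1 between the controls' changes did not pass (edgeR adjusted p = 0.0992), and 3243 genes differed between these changes, 2070 and 1705 genes passed in the rescue and overexpression responses and 896 in their difference. With 2 replicates in the short course, only differences large against their spread could pass.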

Other observations

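Cyp1a1, a target of the aryl hydrocarbon receptor, which is also known to act on Nqo1, was looked at after its values were seen. At 0 min of the short course it had 6.97 and 5.42 TPM in KO control and 0.136 and 0.227 TPM in WT control, without overlap, a difference of 5.10 ± 0.24 (edgeR adjusted p = 1.01e-26). Untreated cells of the long course averaged 0.262 ± 0.034 TPM in KO control and 0.198 ± 0.073 TPM in WT control (SD, n = 3), and the difference of 0.38 ± 0.69 did not pass (edgeR adjusted p = 0.717). Nqo1 was higher in KO control by 0.27 ± 0.053 in the short course and gave 0.022 ± 0.040 in the long course (edgeR adjusted p = 4.25e-04 and 0.724). In the KO transgene line of the short course Cyp1a1 at 0 min gave -0.26 ± 0.14 against KO control (edgeR adjusted p = 0.448). Nqo1 gave -0.25 in that comparison (edgeR adjusted p = 0.0269). Whether the receptor has a part in the level of Nqo1 was not tested. In the long course Cyp1a1 was low, with a median of 0.370 TPM in KO control and 0.424 TPM in WT control over 15 libraries each. Its highest values were 4.29 and 2.51 TPM. From that low level it rose over time by 3.06 ± 0.50 in KO control and by 2.56 ± 0.57 in WT control (edgeR adjusted p = 3.17e-07 and 5.55e-04), each at its own time of largest change. At the time where these changes differed most, that in KO control was the lower, by 1.95 ± 0.86 (edgeR adjusted p = 8.21e-03).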
